A study of Homo sapiens and Mus musculus with 24 samples.

Results

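The ABC transporters of efflux and sterol transport, ABCB1, ABCC1, ABCC2, ABCC3, ABCC4, ABCG1, ABCG2, ABCG5, ABCG8 and ABCA1, were followed by RNA sequencing in human Caco-2 cells and in mouse colonic epithelium that differed in the DNA methyltransferase DNMT3A. They were taken by name from the tables of counted reads, where 10 of 10 were present among 58051 human genes and 9 of 9 with an equal symbol, ignoring case, among 29307 mouse genes. The counterparts of ABCB1 in the mouse carry other symbols, Abcb1a and Abcb1b, and are described at the end. Caco-2 is a line from a human colorectal adenocarcinoma that takes on features of the absorptive enterocyte. Its 15 libraries comprised 4 of unedited cells (WT), 4 of a clone in which DNMT3A had been disrupted with CRISPR/Cas9 (ΔDNMT3A), and 3 and 4 of ΔDNMT3A cells given back a tagged coding sequence of the isoform DNMT3A1 or DNMT3A2, driven by the CMV promoter, integrated by piggyBac transposition and grown on puromycin as clones. One further DNMT3A1 sample was not analysed here. Each modified group is 1 clonal line, so the clone and the change to DNMT3A cannot be told apart in any comparison. Nothing in the labels says that the replicates of a line were separate cultures. The p-values therefore measure the spread between libraries of a line, which may be technical. The 8 mouse libraries came from colonic epithelial cells purified by EpCAM from adult mice at steady state, 4 with both Dnmt3a alleles floxed and intact (Dnmt3a fl/fl) and 4 in which Cre under the Villin promoter, active in intestinal epithelium, deletes them (Dnmt3a ΔIEC). The labels do not give the age of each mouse.

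ABC transporters use ATP to move molecules out of the cell or across a leaflet of its membrane. In the gut, ABCB1 (P-glycoprotein), ABCG2 (breast cancer resistance protein) and ABCC2 sit on the side facing the lumen and return drugs, plant compounds and conjugates to it, whereas ABCC1 and ABCC3 face the blood or the neighbouring cells and pass on glutathione and glucuronide conjugates and bile acids. ABCC4, an exporter of cyclic nucleotides, is found on either side, depending on the cell. ABCG5 and ABCG8 work only as a pair and secrete plant sterols and cholesterol into the lumen. ABCA1 and ABCG1 load cholesterol onto lipoprotein particles and are classical targets of the liver X receptors.

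DNMT3A methylates cytosine next to guanine, so the CpG content of the members' start regions is given first. In windows of 300 bases, 250 before and 50 after each start that RefSeq lists on GRCh38.p14, the median over 35116 windows was 14 CpG. Windows were at hand for 7 members, and none was matched for ABCC1, ABCC3 and ABCG1. ABCC4 had 47 CpG, more than 97.6% of all windows, and ABCA1 had 23. ABCC2 had 1. ABCB1 had 1 at its distal start and 16 at its proximal start inside the gene, and the 5 ABCG2 starts had 3, 11, 33, 33 and 35. The first 3 stretches shown set the CpG-poor distal starts of the 2 members with the largest differences below against a CpG-containing one, and the last is all that separates ABCG5 from ABCG8. Each runs 5′ to 3′ on the strand named, and capitals mark each CpG.
ABCB1 distal start, chr7:87713296-87713545, minus strand: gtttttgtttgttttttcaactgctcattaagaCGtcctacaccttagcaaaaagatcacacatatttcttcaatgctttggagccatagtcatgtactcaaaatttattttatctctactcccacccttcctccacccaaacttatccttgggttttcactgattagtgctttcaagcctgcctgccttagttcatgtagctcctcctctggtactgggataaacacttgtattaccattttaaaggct
ABCB1 proximal start, chr7:87600885-87601134, minus strand: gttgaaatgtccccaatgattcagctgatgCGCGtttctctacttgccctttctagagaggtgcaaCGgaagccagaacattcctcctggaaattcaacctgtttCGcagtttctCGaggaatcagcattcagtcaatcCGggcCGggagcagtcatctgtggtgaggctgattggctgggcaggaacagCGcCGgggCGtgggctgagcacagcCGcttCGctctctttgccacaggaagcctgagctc
ABCG2 most distal start, chr4:88231627-88231876, minus strand: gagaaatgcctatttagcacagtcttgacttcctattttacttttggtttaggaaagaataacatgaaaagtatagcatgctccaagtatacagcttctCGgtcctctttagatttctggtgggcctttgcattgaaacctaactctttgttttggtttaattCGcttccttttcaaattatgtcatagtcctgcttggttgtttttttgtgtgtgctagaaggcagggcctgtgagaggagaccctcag
ABCG5 to ABCG8, chr2:43838866-43838963, plus strand: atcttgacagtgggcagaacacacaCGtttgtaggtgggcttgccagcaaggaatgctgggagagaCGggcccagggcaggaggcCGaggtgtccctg

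Those 3 are the 250 bases before the start and hold 1, 12 and 2 CpG. The last stretch spans the 98 bases between the head-to-head starts of ABCG5 and ABCG8 in the files' gene models and holds 3. For 5 letter patterns both strands were searched. The core of the site for the aryl hydrocarbon receptor, GCGTG, was in 5 of the 12 member windows and 36.5% of all windows, and the core of the antioxidant response element, TGANNNNGC, in 7 and 41.8%. A GC box, GGGCGG, was in 3 of the 12 and 45% of all windows, and includes no other pattern searched. Neither TCACNCCAC, the sterol element of SREBP, nor the DR4 element, a direct repeat read by liver X receptors, was in a member window (1.13% and 0.0199% of all windows). Some ABCG2 windows overlap each other, as do those of ABCG5 and ABCG8, so 1 match can count in more than 1 of the 12 windows. These are matches of letters, not sites shown to be bound. No methylation values enter here.

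The Caco-2 libraries held 22104408 to 42161299 reads assigned to genes and the mouse libraries 16943626 to 24921248. Levels are given as CPM, a gene's counted reads scaled to a common library size, with a further correction for composition over the libraries of a species. DNMT3A itself lay between 61.9 and 67.1 CPM in the WT libraries and between 19.3 and 22.3 in ΔDNMT3A. It lay between 36.6 and 39.03 CPM in DNMT3A1 but only between 20.1 and 23.5 in the libraries labelled DNMT3A2. DNMT3A was lower in ΔDNMT3A than in WT (log2 −1.65, adjusted p = 4.30e-20) and higher again in DNMT3A1 (log2 0.87, adjusted p = 1.91e-11 against ΔDNMT3A). The last group did not differ detectably from ΔDNMT3A (log2 difference 0.07, SE 0.057, adjusted p = 0.272), and a count over the whole gene does not tell the disrupted alleles from a transgene. The label of these 4 libraries was not borne out by the counts, and they are called the libraries labelled DNMT3A2. The study reported re-expression of DNMT3A1 and of DNMT3A2 at the protein level by immunoblot, which counts of RNA do not test. In the mouse, Dnmt3a fell from 84.6 to 102 CPM in Dnmt3a fl/fl to 41.7 to 49.6 in Dnmt3a ΔIEC (log2 −1.03, SE 0.090, adjusted p = 0.000763). Of 8 epithelial markers, 8 reached a mean of 1 CPM in 3 of the Caco-2 groups and 7 in the libraries labelled DNMT3A2, with sums of 8561 to 12885 CPM. The 8 enterocyte markers summed to 424 to 486 CPM per WT library and 496 to 578 per ΔDNMT3A library. The sums were highest in DNMT3A1, 846 to 1038, and lowest, 268 to 304, in the libraries labelled DNMT3A2. Most of each sum was APOA1 (medians of 270, 345, 533 and 125 CPM in WT, ΔDNMT3A, DNMT3A1 and the last group) and FABP1 (137, 159, 238 and 124). ALPI and SI were also highest in DNMT3A1 and lowest in the last group. ANPEP was highest in ΔDNMT3A (median 12.4 CPM) and SLC26A3 in the last group (1.83). CA1 and AQP8 never passed 0.0395 and 0.0478 CPM. Of these 8, 5 or 6 reached 1 CPM in each group and none was at 0 throughout. Immune markers summed to 5.58 to 6.19 CPM in WT and 18.5 to 21.8 in ΔDNMT3A, and hepatocyte markers to 128 to 138 CPM in ΔDNMT3A and 295 to 317 in DNMT3A1. The part of these markers in the results was not tested.

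In all, 7 members were expressed in Caco-2 at a level that could be tested. In each pair of groups a model of the counts (edgeR's quasi-likelihood test) gave a log2 difference, its standard error (SE) and a p adjusted over all genes tested, and a gene was called at an adjusted p under 0.05. Between ΔDNMT3A and WT, 5 of 7 members were called higher and 2 lower, against 62.2% of all 16654 genes called (31.2% higher and 31.0% lower). Without WT replicate 2 or without ΔDNMT3A replicate 4, the number called fell from 7 to 4 of 7. Between DNMT3A1 and ΔDNMT3A, 2 were called higher and 5 lower, with 60.7% of genes called (30.4% higher and 30.3% lower). Between the libraries labelled DNMT3A2 and ΔDNMT3A 1 was called higher and 5 lower, with 67.9% of genes called (33.8% higher and 34.1% lower). DNMT3A1 had 4 higher and 2 lower than WT, where 65.3% of genes were called (32.6% higher and 32.7% lower), and the libraries labelled DNMT3A2 had 3 higher and 3 lower than WT, where 68.7% were (34.3% and 34.4%). DNMT3A1 had 4 higher and 3 lower than the libraries labelled DNMT3A2, with 68.5% of genes called (34.5% and 33.9%). With most tested genes called between any pair of lines, a count of members near these shares is not a result about the members, and the sizes of their differences are given below. The groups' libraries did not overlap for 5 of 7 members between ΔDNMT3A and WT (55.4% of all genes), for 7 between DNMT3A1 and ΔDNMT3A (59.8%) and for 5 between the libraries labelled DNMT3A2 and ΔDNMT3A (61.4%). They did not overlap for 5 between DNMT3A1 and WT (63.4%), for 6 between the libraries labelled DNMT3A2 and WT (62.2%) and for 7 between DNMT3A1 and the libraries labelled DNMT3A2 (66.7%). The members' median log2 difference was 0.15, −0.24 and −0.31 in the first 3 comparisons named, beside medians of −0.0049, 0.014 and 0.0036 over all genes tested. The comparisons share the ΔDNMT3A or WT libraries and are not independent of each other.

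**Figure D1:**
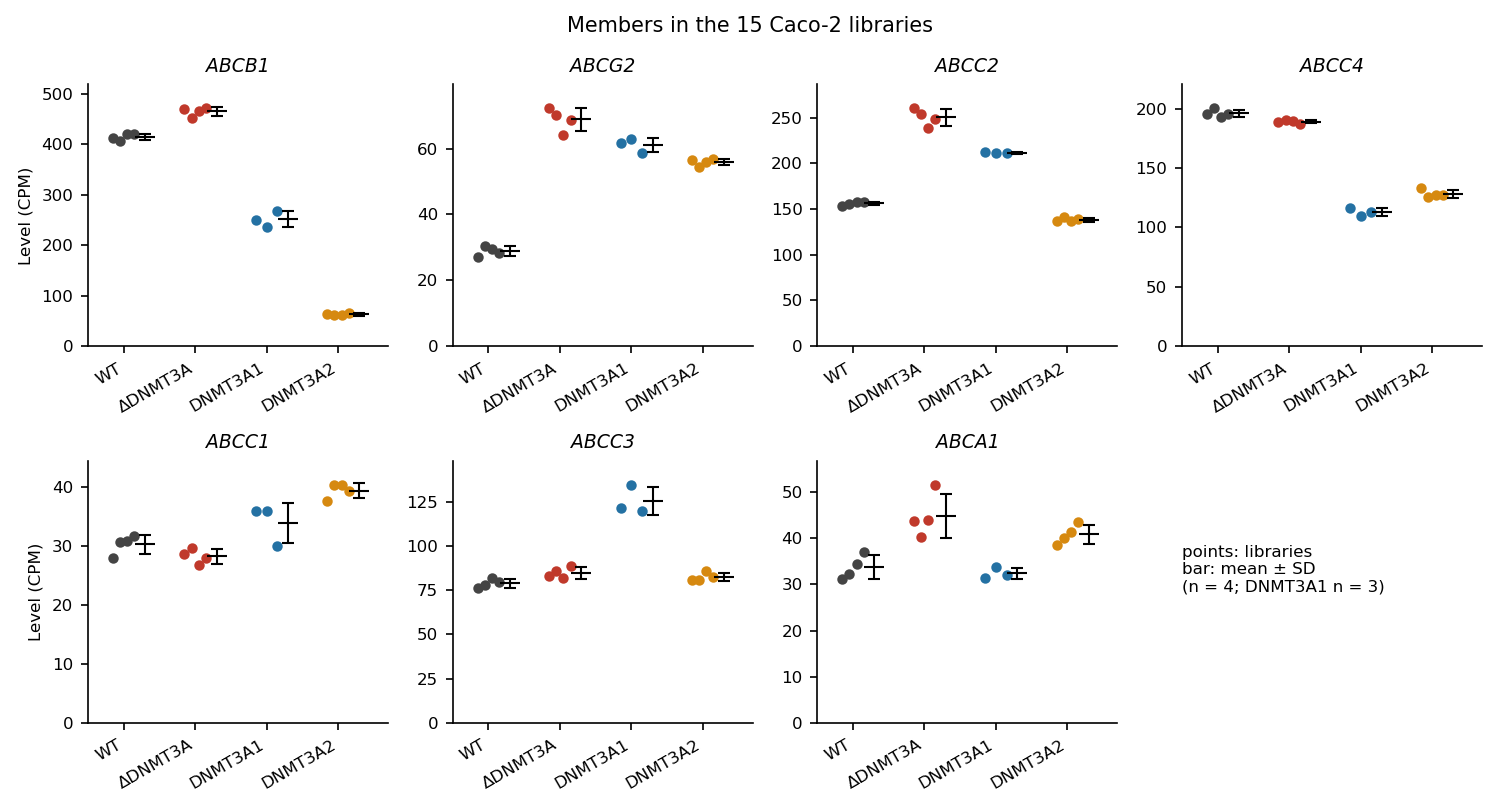
Level of each of the 7 members expressed in Caco-2 (CPM, linear axis from 0) in each library of WT, ΔDNMT3A, DNMT3A1 and the group labelled DNMT3A2, with points for libraries and a bar for the mean ± SD of each group. The 4 ABCB1 points of the libraries labelled DNMT3A2 lie between 61.4 and 66.5 CPM, far below the other 11, and the 4 WT points of ABCG2 lie between 27.2 and 30.5 CPM, below the other 11.

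ABCB1 (ENSG00000085563, chr7:87503633-87713323, minus strand) encodes P-glycoprotein, the best known multidrug efflux pump of the gut wall, and showed the widest range of all members. The WT libraries read 413, 407, 419.6 and 420.0 CPM and the ΔDNMT3A libraries 470.0, 453, 466 and 471 CPM. The DNMT3A1 libraries read 249, 237 and 269 CPM, and the libraries labelled DNMT3A2 read 63.0, 61.4, 61.5 and 66.5 CPM. ABCB1 was thus highest in ΔDNMT3A, a little lower in WT, clearly lower in DNMT3A1 and lowest by far in the libraries labelled DNMT3A2, and no library of one group overlapped another group. The rise in ΔDNMT3A over WT was small (log2 0.15, SE 0.025, adjusted p = 1.11e-05). DNMT3A1 lay 1.85-fold below ΔDNMT3A (log2 −0.88, SE 0.037, adjusted p = 8.95e-14) and below WT as well (log2 −0.72, adjusted p = 5.21e-15).

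The libraries labelled DNMT3A2 held 7.39-fold less ABCB1 than ΔDNMT3A (log2 −2.89, SE 0.028, adjusted p = 1.51e-27) and 6.64-fold less than WT (log2 −2.73, SE 0.027, adjusted p = 1.49e-34). Within sequencing lane 5 and lane 6 taken alone the first of these log2 differences was −2.89 and −2.88. Between DNMT3A1 and ΔDNMT3A it was −0.93 and −0.80, where lane 6 holds only 1 DNMT3A1 library. ABCB1 in DNMT3A1 was 3.99-fold above the libraries labelled DNMT3A2, the largest difference of any member between these groups (log2 2.00, SE 0.039, adjusted p = 5.43e-24). In bulk RNA, fewer cells carrying a transcript and less of it in each cell cannot be told apart. The summed enterocyte markers, mostly APOA1 and FABP1, were lowest in the same libraries but highest in DNMT3A1, where ABCB1 was below WT. Their part in the ABCB1 result was not tested.

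**Figure D2:**
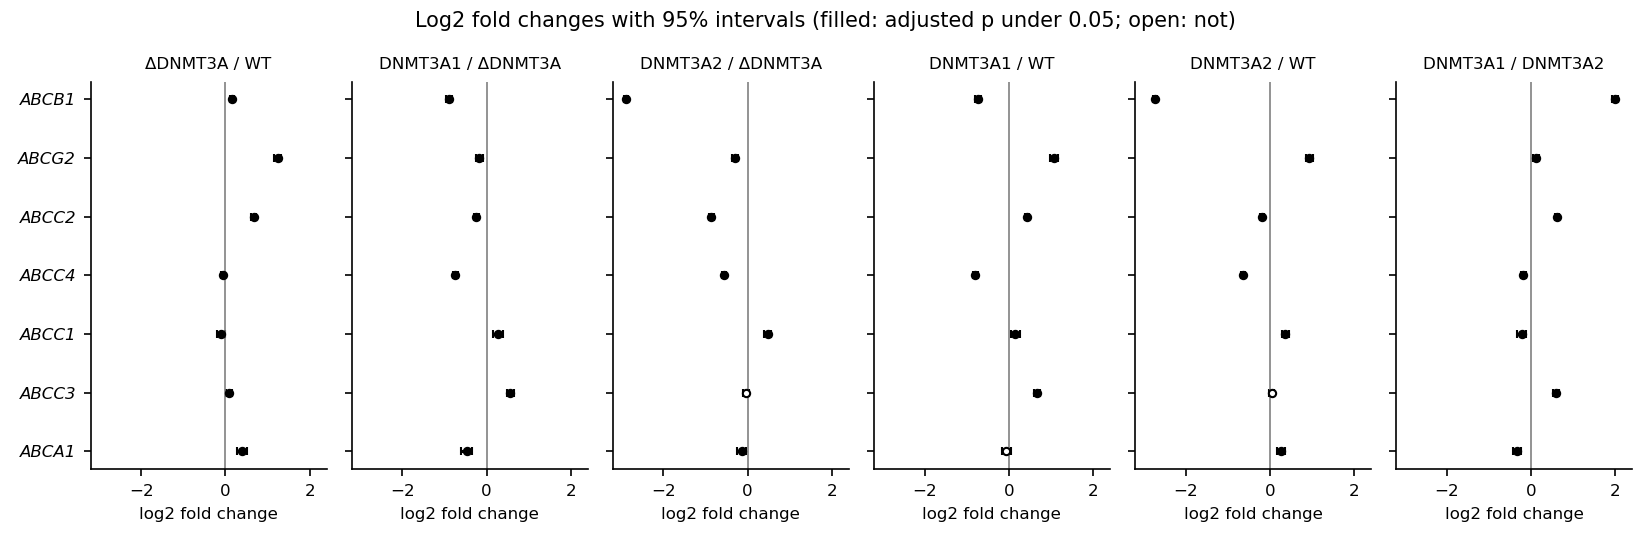
Fitted log2 difference of each of the 7 expressed members in the 6 Caco-2 comparisons, with bars for the 95% interval and open points where the difference was not called. ABCB1 in the libraries labelled DNMT3A2 stands farthest from 0, at −2.89 against ΔDNMT3A and −2.73 against WT, and ABCG2 is the farthest above 0 in ΔDNMT3A against WT, at 1.25.

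The surroundings of ABCB1 on chromosome 7 were read in the same way, since a clone can gain or lose a stretch of a chromosome. Over the 50 nearest tested genes the median log2 difference between the libraries labelled DNMT3A2 and ΔDNMT3A was 0.12, and 2 of the 50, SAMD9 and SAMD9L, lay below ABCB1. Of the 50, 24 were called higher and 13 lower, beside 33.8% and 34.1% of all genes. The genes named here were chosen after their values were seen. Nearby TMEM243 and DMTF1 were higher in the libraries labelled DNMT3A2 (log2 0.29 and 0.44), DBF4, an activator of a replication kinase, was slightly higher (0.16) and the mitochondrial carrier SLC25A40 slightly lower (−0.19), all called. CROT, a peroxisomal acyltransferase, was not called (−0.08, adjusted p = 0.581). Farther away a run of genes was lower, with STEAP1 (−1.62) and STEAP2 (−1.36), of a membrane metalloreductase family, 2.44 and 2.45 Mb from ABCB1, and CFAP69 (−1.71) at 2.53 Mb, and SAMD9 was at −2.92 at 5.39 Mb. Against WT, the 50 nearest tested genes had a median of −0.45 in the libraries labelled DNMT3A2. There, 4 were called higher and 35 lower, beside 34.3% and 34.4% of all genes. Whether the clones differ in copy number here was not tested.

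The gene that shares the locus was lower with ABCB1 in DNMT3A1 and in the libraries labelled DNMT3A2, but in ΔDNMT3A against WT it went the other way (log2 −0.63, adjusted p = 0.000209, where ABCB1 was 0.15). RUNDC3B lies across ABCB1 on the opposite strand, and the files were counted by strand. It read 3.75 ± 0.394 CPM in WT and 2.44 ± 0.559 in ΔDNMT3A (SD, n = 4 each), 1.64 ± 0.332 in DNMT3A1 (SD, n = 3) and 0.495 ± 0.147 in the libraries labelled DNMT3A2 (SD, n = 4). Between the last group and ΔDNMT3A it fell by 2.31 on the log2 scale (SE 0.26, adjusted p = 3.86e-09). ABCB4, the phosphatidylcholine exporter next to ABCB1, had 14 to 24 reads in each WT library, 7 to 16 in ΔDNMT3A, 11 to 21 in DNMT3A1 and 0 to 4 in the libraries labelled DNMT3A2, where it lay below WT (log2 −2.82, SE 0.56, adjusted p = 2.05e-06). ADAM22, 0.221 Mb away, was lower in these libraries than in ΔDNMT3A (log2 −1.85, adjusted p = 2.67e-17) and than in WT (log2 −2.29, adjusted p = 3.06e-25). In ΔDNMT3A against WT the 50 neighbours had a median of −0.50, with 4 called higher and 37 lower (31.2% and 31.0% of all genes). ABCB1 stood above 46 of them.

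**Figure D3:**
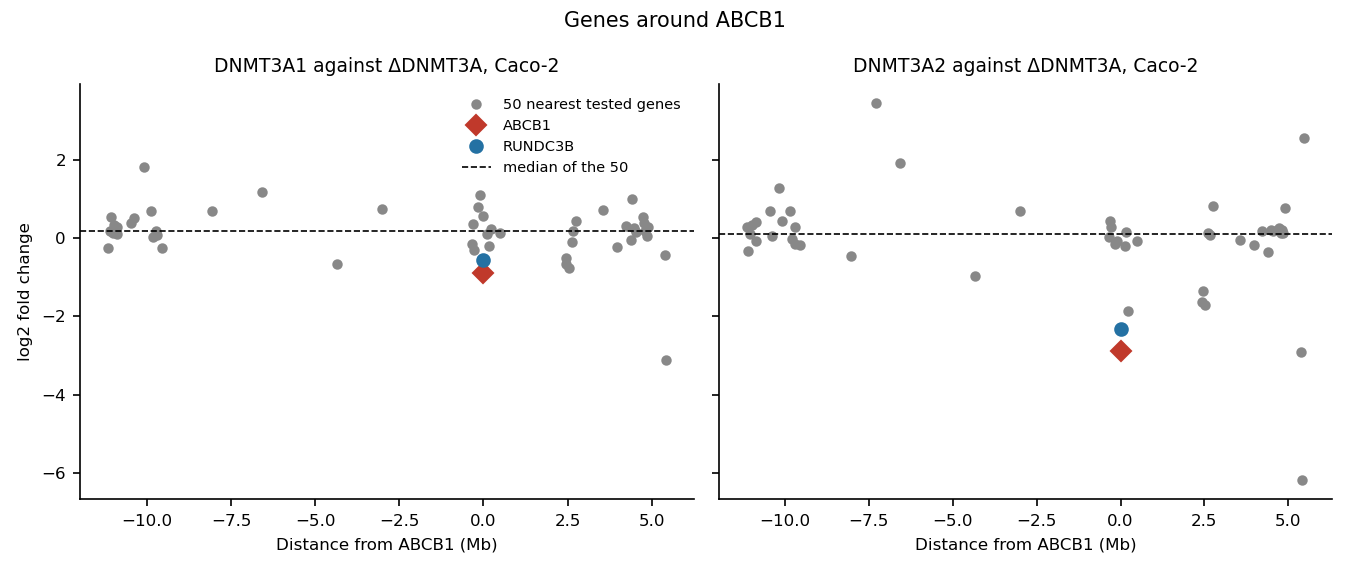
Log2 difference of DNMT3A1 (left) and of the libraries labelled DNMT3A2 (right) from ΔDNMT3A for ABCB1 and its 50 nearest tested genes, by distance from ABCB1 in megabases, with a dashed line for the median of the 50. On the right the median is 0.12, ABCB1 lies at −2.89 and RUNDC3B, the gene overlapping it, at −2.31, and 2 of the 50 lie below ABCB1.

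ABCG2 (ENSG00000118777, chr4:88090264-88231322, minus strand), the luminal transporter of urate and many drugs, was the member farthest above WT in the ΔDNMT3A clone. It was also above the WT level in DNMT3A1 and in the libraries labelled DNMT3A2. Its level was 27.2, 30.5, 29.5 and 28.4 CPM in the WT libraries and 72.2, 70.2, 64.1 and 68.7 CPM in ΔDNMT3A. In DNMT3A1 it was 61.8, 62.9 and 58.6 CPM and in the libraries labelled DNMT3A2 56.5, 54.6, 55.8 and 56.7 CPM. Every modified library lay well above every WT library, and the 3 modified groups were close together in the order ΔDNMT3A, DNMT3A1 and libraries labelled DNMT3A2, without overlap. ABCG2 was 2.37-fold higher in ΔDNMT3A than in WT (log2 1.25, SE 0.043, adjusted p = 1.07e-17), and it was still 2.11-fold above WT in DNMT3A1 and 1.92-fold above in the libraries labelled DNMT3A2. Against ΔDNMT3A the decreases were small, −0.17 in DNMT3A1 (SE 0.045, adjusted p = 0.00233, and −0.18 within lane 6) and −0.31 in the libraries labelled DNMT3A2 (SE 0.036, adjusted p = 6.60e-08). The gap between these 2 lines, 0.13 (SE 0.037, adjusted p = 0.00317), was 0.17 within lane 5 and 0.07 within lane 6. Lane 6 holds only 1 DNMT3A1 library. Among the 50 nearest genes of ABCG2, whose median was 0.02 in ΔDNMT3A against WT, 46 lay below it.

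ABCC2 (ENSG00000023839, chr10:99782732-99852192, plus strand), which carries conjugates such as bilirubin glucuronide across the luminal membrane, also rose in ΔDNMT3A but fell below WT in the libraries labelled DNMT3A2. The WT libraries gave 153, 156, 157 and 158 CPM and the ΔDNMT3A libraries 260.1, 254, 239 and 248 CPM. DNMT3A1 gave 212, 211 and 211 CPM, and the libraries labelled DNMT3A2 gave 136, 141, 137 and 139 CPM. The 4 groups did not overlap. ABCC2 was higher in ΔDNMT3A than in WT by 0.67 on the log2 scale (SE 0.029, adjusted p = 9.47e-16), and lower than ΔDNMT3A by −0.24 in DNMT3A1 (SE 0.032, adjusted p = 1.66e-06) and −0.86 in the libraries labelled DNMT3A2 (SE 0.027, adjusted p = 3.81e-18). The last group was below WT by a small but called difference (log2 −0.19, adjusted p = 2.57e-08). Its 50 nearest genes had a median of −0.28 in ΔDNMT3A against WT, with 48 of them below ABCC2.

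ABCC4 (ENSG00000125257, chr13:95019829-95301446, minus strand), which exports cyclic nucleotides and prostaglandins, behaved differently, with similar levels in WT and ΔDNMT3A and lower ones in DNMT3A1 and in the libraries labelled DNMT3A2. The values were 196, 200.4, 193 and 196 CPM in WT and 189, 191, 189.8 and 187 CPM in ΔDNMT3A. They were 117, 109.6 and 113 CPM in DNMT3A1 and 133, 126, 127 and 127 CPM in the libraries labelled DNMT3A2. The first pair of groups was apart by a narrow margin, and the other groups were far below both. ABCC4 fell by 0.74 on the log2 scale in DNMT3A1 against ΔDNMT3A (SE 0.030, adjusted p = 6.75e-14) and by 0.56 in the libraries labelled DNMT3A2 (SE 0.025, adjusted p = 1.63e-15). Its 50 nearest genes were also lower in these 2 comparisons, with medians of −0.32 and −0.30. The difference between ΔDNMT3A and WT, −0.06, was called (SE 0.025, adjusted p = 0.0319), but leaving out WT replicate 2 or 4 or any ΔDNMT3A replicate ended the call (adjusted p of 0.0501 to 0.0743).

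The pair that faces the blood side, ABCC1 and ABCC3, differed by at most 0.66 on the log2 scale in any comparison. ABCC1 (ENSG00000103222, chr16:15949577-16143074, plus strand), the first of the multidrug resistance-associated proteins to be named, read 27.9, 30.6, 30.9 and 31.7 CPM in WT and 28.6, 29.6, 26.7 and 27.9 CPM in ΔDNMT3A. It read 35.8, 35.9 and 30.04 CPM in DNMT3A1 and 37.5, 40.3, 40.3 and 39.3 CPM in the libraries labelled DNMT3A2. The last group was above all others, and WT overlapped with both ΔDNMT3A and DNMT3A1. ABCC1 was higher than in ΔDNMT3A by 0.47 in the libraries labelled DNMT3A2 (SE 0.043, adjusted p = 1.15e-09) and by 0.26 in DNMT3A1 (SE 0.061, adjusted p = 0.000889). The latter was 0.14 within lane 6, which holds only 1 DNMT3A1 library. The decrease in ΔDNMT3A against WT, −0.11, sat at the edge of the call (SE 0.048, adjusted p = 0.0497). It was lost without WT replicate 2, 3 or 4 or ΔDNMT3A replicate 1, 3 or 4 (adjusted p of 0.0636 to 0.161), and was −0.02 within lane 5. The rise of DNMT3A1 above WT (log2 0.16, SE 0.058, adjusted p = 0.0209) turned to −0.06 within lane 6, with its 1 DNMT3A1 library. Its call was lost without WT replicate 1 or DNMT3A1 replicate 1 or 2 (adjusted p of 0.0815 to 0.149).

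ABCC3 (ENSG00000108846, chr17:50634777-50692252, plus strand), which passes bile acids and glucuronides to the blood, was set apart by DNMT3A1. It read 76.4, 77.9, 82.2 and 79.6 CPM in WT, 83.0, 85.7, 81.7 and 88.8 CPM in ΔDNMT3A and 81.0, 80.7, 85.9 and 82.7 CPM in the libraries labelled DNMT3A2. The DNMT3A1 libraries read 122, 135 and 120.0 CPM. Only these 3 lay apart, and the other 3 groups overlapped. ABCC3 was higher in DNMT3A1 by 0.56 over ΔDNMT3A (SE 0.041, adjusted p = 3.06e-10) and 0.60 over the libraries labelled DNMT3A2 (SE 0.036, adjusted p = 6.06e-14). The summed enterocyte markers, mostly APOA1 and FABP1, were highest in DNMT3A1 too, and their part in this was not tested. The libraries labelled DNMT3A2 did not differ detectably from ΔDNMT3A (log2 −0.04, 95% interval −0.11 to 0.022, adjusted p = 0.262). A rise of 0.09 in ΔDNMT3A over WT was called (SE 0.034, adjusted p = 0.0233), but not without WT replicate 1 or 2 or ΔDNMT3A replicate 2 or 4 (adjusted p of 0.0503 to 0.0966), and it was 0.06 within lane 6 (adjusted p = 0.344).

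Of the 4 sterol transporters, only ABCA1 was read in these cells at a level that could be tested. ABCA1 (ENSG00000165029, chr9:104781002-104928237, minus strand), which hands cholesterol to apolipoprotein A-I, read 31.2, 32.3, 34.4 and 37.1 CPM in WT and 43.7, 40.3, 44.1 and 51.6 CPM in ΔDNMT3A. It read 31.5, 33.8 and 32.1 CPM in DNMT3A1 and 38.5, 40.03, 41.3 and 43.6 CPM in the libraries labelled DNMT3A2. ΔDNMT3A was above WT and DNMT3A1, which overlapped each other, and the libraries labelled DNMT3A2 lay between them and overlapped ΔDNMT3A. ABCA1 was higher in ΔDNMT3A than in WT (log2 0.40, SE 0.060, adjusted p = 3.29e-06) and lower in DNMT3A1 than in ΔDNMT3A (log2 −0.47, SE 0.065, adjusted p = 3.44e-06). DNMT3A1 and WT did not differ detectably (log2 −0.06, SE 0.054, adjusted p = 0.321). The values were 0.03 within lane 5 and −0.16 within lane 6, which holds only 1 DNMT3A1 library. The decrease of −0.14 in the libraries labelled DNMT3A2 was called (SE 0.056, adjusted p = 0.0333), but not without replicate 1, 2 or 3 of that group or ΔDNMT3A replicate 4 (adjusted p of 0.0532 to 0.171), and not within lane 5 (−0.10, adjusted p = 0.132).

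ABCG1, ABCG5 and ABCG8 were at or near 0 in every Caco-2 library and were not tested. ABCG1 (ENSG00000160179, chr21:42199689-42297244, plus strand) had 0 reads in 13 of 15 libraries and at most 2 in any. ABCG5 (ENSG00000138075, chr2:43812472-43838865, minus strand) had 0 in 11 libraries and at most 2. ABCG8 (ENSG00000143921, chr2:43838964-43878466, plus strand) had 0 in 8 libraries and at most 4. A count of 0 allows a level of up to 0.0712 to 0.136 CPM, depending on the depth of the library, from counting error alone. No library of any group held more than 4 reads of any of these 3 genes, so differences between groups were not detectable at this depth.

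Per kilobase of gene length, the order of the members changed between the lines. The length is that of all counted exons of a gene, not of the transcript expressed, so close orders between genes are uncertain. In WT, ABCB1 led at 71.5 CPM per kb, followed by ABCC4 and ABCC2, both 25.1 and not apart, ABCC3 at 8.22, ABCG2 at 5.96, ABCC1 at 3.99 and ABCA1 at 2.97. In ΔDNMT3A the order was ABCB1 at 80.1, ABCC2 at 40.2, ABCC4 at 24.2, ABCG2 at 14.2 and ABCC3 at 8.82, with ABCA1 at 3.96 and ABCC1 at 3.72 not apart. In DNMT3A1, ABCB1 at 43.3 and ABCC2 at 33.9 still led, and ABCC3 at 13.0 and ABCG2 at 12.6 were not apart. In the libraries labelled DNMT3A2, ABCC2 came first at 22.2, then ABCC4 at 16.4, and ABCB1 at 10.9 was not apart from ABCG2 at 11.5. By this measure, ABCG2 stood below ABCC3 in WT and above it in ΔDNMT3A and in the libraries labelled DNMT3A2.

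**Figure D4:**
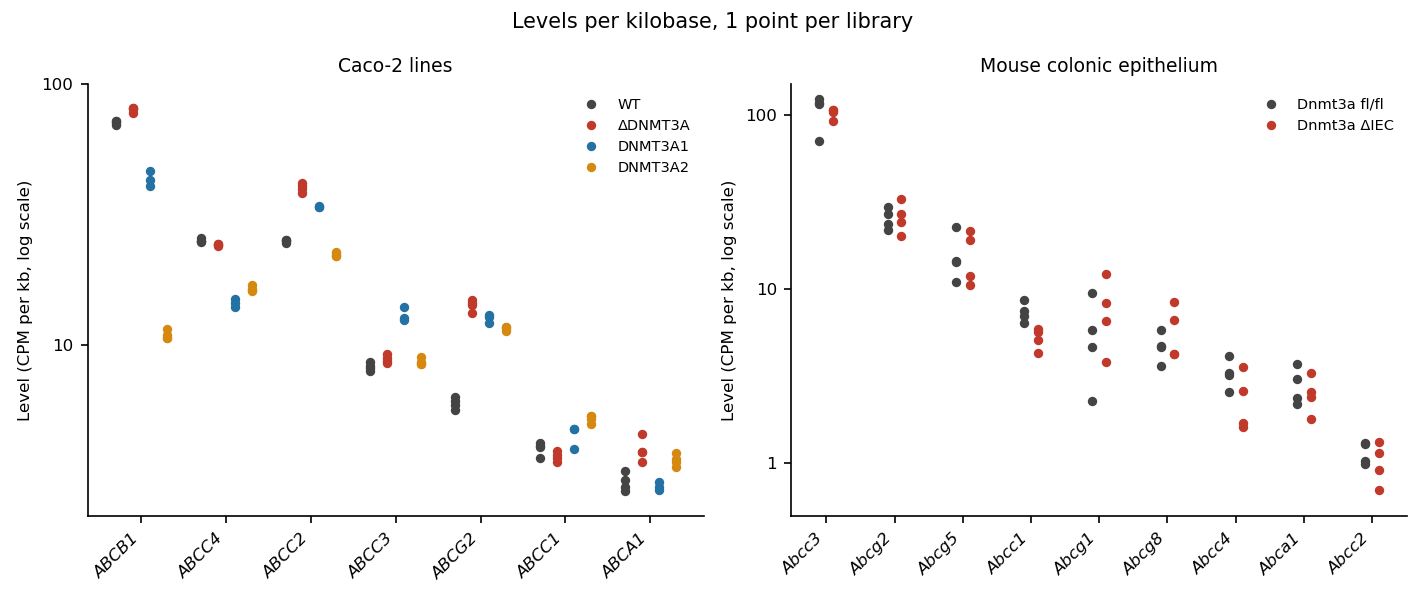
Level per kilobase of gene length (CPM per kb, log axis) of the 7 expressed members in Caco-2 (left) and the 9 members in mouse colonic epithelium (right), 1 point per library. The mean of ABCB1 drops from 71.5 in WT to 10.9 in the libraries labelled DNMT3A2. That of ABCG2 rises from 5.96 in WT to 14.2 in ΔDNMT3A. Abcc3 leads the 9 mouse members, which leave out the counterparts of ABCB1, at 107 in Dnmt3a fl/fl.

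The other ABC genes of Caco-2 moved in both directions between ΔDNMT3A and WT. Of 35 further protein-coding ABC genes 25 were tested, and 9 were called higher and 8 lower, beside 31.2% and 31.0% of all genes, with a median log2 difference of 0.02. The highest were ABCC9 (log2 1.43, SE 0.041), a subunit of ATP-sensitive potassium channels, ABCC5 (0.82, SE 0.040), an exporter of cyclic nucleotides, and ABCF3 (0.63, SE 0.032), an ABC protein without membrane domains. The lowest were ABCA3 (−1.37, SE 0.097), which loads surfactant lipids in the lung, ABCC6 (−0.67, SE 0.038) and ABCA2 (−0.65, SE 0.053). ABCC6 has near-identical pseudogene copies, and its count is uncertain. In the libraries labelled DNMT3A2 against ΔDNMT3A, 8 of 24 were called higher and 12 lower (33.8% and 34.1% of all genes), and in DNMT3A1 against ΔDNMT3A 6 of 25 higher and 7 lower (30.4% and 30.3%).

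Receptors and factors known to act on the members did not share a direction. Of 16 tested genes of xenobiotic sensing, 2 were called higher and 6 lower in ΔDNMT3A against WT, beside 31.2% and 31.0% of all genes. PPARA, the receptor for fatty acids, was the lowest (log2 −1.25, SE 0.057), with the glucocorticoid receptor NR3C1 (−0.50, SE 0.046) and the shared partner RXRA (−0.39, SE 0.036), and the vitamin D receptor VDR was higher (0.29, SE 0.062). NR1I2, the pregnane X receptor, through which many drugs raise ABCB1, had 0 to 11 reads per library and was not tested. HNF4A, a master factor of enterocytes, fell from 427 ± 19.1 CPM in WT to 381 ± 15.2 in ΔDNMT3A (SD, n = 4 each), and was 322 ± 15.5 in DNMT3A1 (SD, n = 3) and 325 ± 6.90 in the libraries labelled DNMT3A2 (SD, n = 4). Those last 2 groups did not differ detectably in HNF4A (log2 −0.0086, SE 0.031, adjusted p = 0.822). The part of these factors in the members' levels was not tested. AHR and NFE2L2, sensors of aromatic compounds and of electrophiles, were not called in ΔDNMT3A against WT (adjusted p = 0.552 and 0.735), and both were higher than ΔDNMT3A in DNMT3A1 (log2 0.42 and 0.37) and in the libraries labelled DNMT3A2 (0.40 and 0.20).

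Of 21 genes of sterol sensing and handling, 9 were called higher and 8 lower in ΔDNMT3A against WT, beside 31.2% and 31.0% of all genes, with a median of 0.06. NCEH1, a cholesterol ester hydrolase (log2 1.28, SE 0.047), CYP27A1, the sterol 27-hydroxylase (0.62, SE 0.058), and SMPDL3A, a target of liver X receptors (0.57, SE 0.068) were highest. SOAT2, which esterifies cholesterol in enterocytes (−0.97, SE 0.062), and the phospholipid transfer protein PLTP (−0.74, SE 0.041) were among the 3 lowest. The mRNA of the liver X receptor NR1H3 was lower in ΔDNMT3A than in WT (log2 −0.18, SE 0.045, adjusted p = 0.00108), and its part in the ABCA1 level was not tested. In the libraries labelled DNMT3A2 against ΔDNMT3A, 4 of these 21 genes were called higher and 15 lower (median −0.24), with 33.8% of all genes called higher and 34.1% lower (median 0.0036). In DNMT3A1 against ΔDNMT3A 6 were higher and 8 lower (median −0.08), with 30.4% and 30.3% of all genes (median 0.014).

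Among 13 tested partners and suppliers of the pumps, 9 were called higher and 3 lower in ΔDNMT3A against WT, where 31.2% of all genes were called higher and 31.0% lower. The median was 0.26, beside −0.0049 over all genes. The peptide transporter SLC15A1 (log2 1.70, SE 0.054), UGT1A1, which makes the glucuronides that ABCC2 carries (1.21, SE 0.094), and RDX, the radixin that anchors ABCC2 at the membrane (0.88, SE 0.029), were highest. UGT1A1 shares its last exons with the other UGT1A genes, so its count is uncertain. PRKAA1, a catalytic subunit of AMP-activated kinase (−0.41, SE 0.031), the vault protein MVP (−0.26, SE 0.042) and PDZK1, a scaffold of luminal transporters (−0.08, SE 0.031), were lowest. GSTP1, which conjugates glutathione to substrates of the ABCC pumps, was 736 ± 10.2 CPM in WT and 1289 ± 33.4 in the libraries labelled DNMT3A2 (SD, n = 4 each), where it was higher than in ΔDNMT3A by 0.64 on the log2 scale (adjusted p = 5.53e-17).

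Profiles closest to each member over the 15 Caco-2 libraries were sought among 13758 genes by the root-mean-square distance of centred log2 levels, as a description. AATK was among the 2 genes nearest to ABCB1 (distance 0.169), whereas the median gene lay at 1.20. The mean of AATK was 90.9 CPM in WT and 82.3 in ΔDNMT3A, against 44.8 in DNMT3A1 and 13.6 in the libraries labelled DNMT3A2. ABCG2 was nearest to UGT1A1 (0.105) and TRAF5 (0.109). ABCC2 was nearest to EIF2B5 (0.0524) and EIF4G1 (0.0557), translation initiation factors both encoded on chromosome 3. The nearest gene was NR2F2 for ABCC4, AP2A2 for ABCC3, NOTCH2 for ABCC1 and AP4E1 for ABCA1. The libraries share lines, so these distances rest on 4 lines rather than 15 independent samples.

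In mouse colonic epithelium none of the 9 members was called between Dnmt3a ΔIEC and Dnmt3a fl/fl, where edgeR called 0.691% of 14626 genes (0.602% higher and 0.0889% lower). One of 9, Abcc1, had an unadjusted p under 0.05 (14.1% of all genes had), and 1, the same gene, was called by DESeq2, which called 2.21% of its 15904 tested genes. The Dnmt3a fl/fl libraries read 87.1, 92.8, 107 and 79.4 CPM for Abcc1, and the Dnmt3a ΔIEC libraries 73.2, 69.8, 53.1 and 63.3 CPM. All 4 deleted samples lay below all 4 controls, as the groups of 10.3% of all genes lay apart in one direction or the other. The fitted difference was −0.50 (SE 0.12, adjusted p = 0.144 in edgeR and 0.0194 in DESeq2). Markers of tuft cells, 4 of 4 present, summed to 40.3 to 50.7 CPM in Dnmt3a fl/fl and 127 to 152 in Dnmt3a ΔIEC, and their part in the Abcc1 values was not tested.

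Among the 9 mouse members, which leave out the counterparts of ABCB1, the order was not that of the same genes in Caco-2. Of these, Abcc3 stood first by far, at 107 CPM per kb in Dnmt3a fl/fl. Abcg2 at 25.6 and Abcg5 at 15.7 followed, not apart from each other, and Abcc2 was last at 1.15. Abcb1a, a counterpart of ABCB1, was not ranked per kb. Its mean of 1992 CPM in Dnmt3a fl/fl lay above the 608 CPM of Abcc3. In CPM, Abcc3 read 657.7, 404.9, 667 and 702 in Dnmt3a fl/fl and 526, 594, 612 and 611 in Dnmt3a ΔIEC (log2 −0.05, adjusted p = 0.921). Replicate 2 of Dnmt3a fl/fl is the low value, and this library also had the highest sum of enterocyte markers of its group, 6887 CPM against 2870 to 3473. Its sums of epithelial, goblet (32191 CPM) and hepatocyte markers were the highest of the group as well. Those of enteroendocrine (139 CPM) and immune markers were the lowest. The part of these markers in the Abcc3 value was not tested. Abcg2 read 193, 243, 179 and 221 CPM in Dnmt3a fl/fl and 164, 198, 221 and 269 in Dnmt3a ΔIEC, fully overlapping (log2 0.03).

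The sterol transporters that were at or near 0 in Caco-2 were readily counted in the mouse epithelium. Abcg5 read 39.2, 62.0, 29.7 and 38.96 CPM in Dnmt3a fl/fl and 28.8, 32.5, 58.3 and 52.3 in Dnmt3a ΔIEC, and Abcg8 read 17.7, 22.0, 13.5 and 17.5 against 16.0, 16.0, 31.8 and 24.9. Abcg1 read 19.0, 38.8, 9.23 and 23.7 CPM against 15.6, 26.6, 33.9 and 49.5. The groups overlapped for all 3, with log2 differences of 0.02 (SE 0.26), 0.32 (SE 0.23) and 0.47 (SE 0.41), and spreads this wide leave differences of that size undetectable. Abcg5 and Abcg8 overlap on opposite strands of chromosome 17 and were counted without strand, so reads of their shared stretch cannot be assigned to one of them. Abca1 (−0.18, SE 0.20), Abcc2 (−0.17, SE 0.20) and Abcc4 (−0.47, SE 0.25) overlapped between the groups as well. Abcb1a, the mouse P-glycoprotein of the gut, read 1992 ± 146 CPM in Dnmt3a fl/fl and 1841 ± 305 in Dnmt3a ΔIEC (SD, n = 4 each; log2 −0.11, SE 0.15, adjusted p = 0.775). Abcb1b, its close paralog, with which it may exchange reads, read 4.33 ± 1.94 and 3.10 ± 0.509 CPM (SD, n = 4 each).

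**Figure D5:**
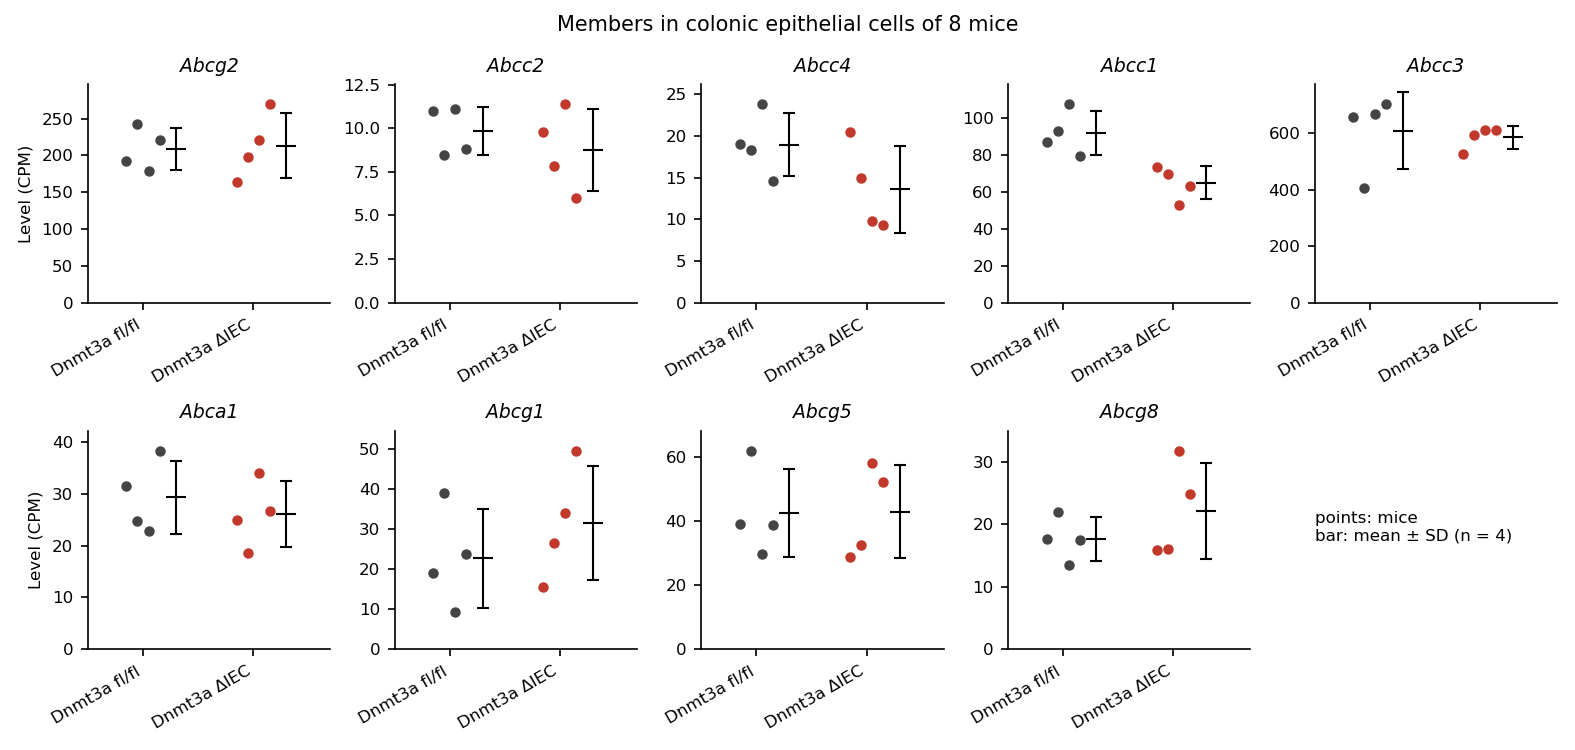
Level of the 9 mouse members (CPM, linear axis from 0) in 4 Dnmt3a fl/fl and 4 Dnmt3a ΔIEC mice, with points for mice and a bar for the mean ± SD. The groups overlap for 8 members, and for Abcc1 the highest Dnmt3a ΔIEC library, at 73.2 CPM, lies below the lowest control, at 79.4 CPM.

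By edgeR 0 genes of the 4 related lists were called in the mouse, of 27 other ABC genes, 17 of xenobiotic sensing, 20 of sterol handling and 14 partners tested. Unadjusted p lay under 0.05 for 2, 0, 3 and 1 of them, and DESeq2 called 1, 0, 1 and 0.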

How the data were processed

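RNA was sequenced from 15 Caco-2 and 8 mouse libraries (paired reads of 75 and 50 bases). The authors trimmed reads with Trim Galore 0.4.4, aligned them with STAR 2.5.2b to GRCh38 or GRCm38 and deposited raw counts per gene from featureCounts, 1.5.2 per the labels but 1.6.4 per the mouse file headers, by strand in human and without strand in mouse. Human identifiers were matched to symbols (56948 of 58051).

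Each comparison was fitted to its own libraries with edgeR 4.0.16 (filterByExpr, TMM scaling, quasi-likelihood F test, Benjamini-Hochberg adjustment over all genes tested, threshold 0.05). The scripts were tested on simulated data. CPM use TMM factors over all libraries of a species. A library at 0 allows 3 counts. Intervals rest on the fitted spread between libraries of a group, and floors cover counting error only. Replicate libraries differed by 1.83 to 5.10 (human) and 9.98 to 80.9 (mouse) chi-square per degree of freedom, so none was a duplicate.

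The members and lists were chosen with earlier results of these data known. The text names all members, DNMT3A, the 3 highest and 3 lowest called genes with a mean of at least 1 CPM of each list in ΔDNMT3A against WT, and the 2 nearest profiles of each member on log2(CPM + 0.5). Neighbours of ABCB1, and Abcb1a, Abcb1b, NR1I2, HNF4A, AHR, NFE2L2, NR1H3 and GSTP1 were named in addition, after their values were seen. A few genes that this rule picks are not reported here.

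Alternatives were DESeq2 1.42.0 (the study's tool), its size factors within edgeR, no filter, no TMM scaling, a length trend, the replicate block, a fit of all groups and each library left out. GC content and fits within a lane (lane 5 holds replicates 1 and 2, lane 6 replicates 3 and 4, so that 1 DNMT3A1 library there was assumed to vary like the others) were added after seeing the data.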

Additional observations from a re-analysis of the deposited data

Results flagged for a closer look

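Abcc3 in Dnmt3a fl/fl replicate 2 stood apart from its group, at 404.9 CPM against 657.7 to 702 CPM in the other 3 libraries. The gap took 0.852 of the group's range, above Dixon's 95% critical value for 4 samples. This was the only such value in 40 groups of 4 libraries examined, and chance marks about 1 in 20.

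DNMT3A1 and the libraries labelled DNMT3A2 differed in all 7 members tested in Caco-2, by the adjusted p of edgeR's test of the difference itself. DNMT3A1 was above the libraries labelled DNMT3A2 in ABCB1 (log2 2.00), ABCC2 (0.61), ABCC3 (0.60) and ABCG2 (0.13), and below them in ABCA1 (−0.33), ABCC1 (−0.22, and −0.11 with an adjusted p of 0.113 within lane 5) and ABCC4 (−0.18). Over all genes 68.5% were called in this comparison, and each line is 1 clone, so clone and transgene cannot be told apart. DNMT3A itself was no higher in the libraries labelled DNMT3A2 (20.1 to 23.5 CPM) than in ΔDNMT3A (19.3 to 22.3 CPM), so the counts do not show that they carry the isoform. The study reported its protein in this line by immunoblot.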

How the results depend on the processing

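In Caco-2 the counts of genes called moved by less than 1.5 times under every alternative run, and the differences of ABCB1, ABCC2 and ABCC4 larger than 0.1 on the log2 scale kept their direction and their call in all of them. Members called in ΔDNMT3A against WT ranged from 4 to 6 of 7 when 1 library was left out (4 without WT replicate 2 or without ΔDNMT3A replicate 4). DESeq2 did not call ABCC1 in ΔDNMT3A against WT (adjusted p = 0.0985) or in DNMT3A1 against WT (0.0669, log2 0.15), nor ABCA1 in the libraries labelled DNMT3A2 against ΔDNMT3A (0.0541). The sign turned for ABCC3 in the libraries labelled DNMT3A2 against ΔDNMT3A with a GC trend removed (0.026, adjusted p = 0.519). With a length trend removed that difference was −0.10 and called. In DNMT3A1 against WT the sign turned for ABCA1 within lane 5 (0.031) and for ABCC1 within lane 6 (−0.060). Lane 6 holds only 1 DNMT3A1 library, which read 30.04 CPM for ABCC1 against 35.8 and 35.9 CPM in replicates 1 and 2. The cause of these turns was not tested. In the mouse, 352 genes were called with DESeq2, among them 1 member, and 45 to 126 when 1 library was left out. Log2 differences of members near 0 turned sign there, Abcc3 between −0.21 and 0.019 when 1 library was left out, Abcg5 to −0.035 with a length trend removed and between −0.16 and 0.25 with 1 library left out, and Abcg2 between −0.10 and 0.14.

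Replicate numbers were not taken to pair the Caco-2 libraries, since no correlation reached 0.1: deviations of libraries with the same number correlated at −0.086 to 0.072 (21 pairs) and those of other numbers at −0.14 to 0.073 (63 pairs). In 21 of 42 checks a library correlated best with its own number in another group, where 11.2 would if numbers carried nothing, a hint of shared structure from the data and not from the design. With the replicate number as a block, 10043 to 11207 genes were called in the 6 Caco-2 comparisons, each within 1.5 times the count without it, and the members called numbered 7, 7, 6, 6, 6 and 7 as without it. Mouse samples carry no shared number. Depth limits ABCG1, ABCG5 and ABCG8 in Caco-2, and spread between animals limits the mouse.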
